A study of Mus musculus with 48 samples.

Results

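Serpins are proteins of one shared fold, most of which inhibit serine proteases by offering an exposed loop as bait. The 10 genes described here belong to clade A, the group that the liver makes and secretes into plasma in large amounts, and they were taken from a fixed list of symbols out of the 46517 genes in the count table. All 10 were found, and each has the same symbol in the deposited table of corrected values. *Serpina1a*, *Serpina1b*, *Serpina1c*, *Serpina1d* and *Serpina1e* are the mouse copies of the gene for alpha-1 antitrypsin, the main plasma inhibitor of neutrophil elastase. *Serpina3k*, *Serpina3m* and *Serpina3n* belong to the mouse expansion of alpha-1 antichymotrypsin, an acute phase protein. *Serpina6* encodes corticosteroid-binding globulin, which carries glucocorticoids in plasma and does not inhibit proteases. *Serpina4-ps1* is annotated as an unprocessed pseudogene. The label of plasma protease inhibitors therefore covers 8 of the 10 genes by their known function.

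RNA was measured in 16 samples, each sequenced as 3 technical libraries that were summed here. There were 5 explant samples (liver spheroids engrafted in the anterior chamber of the eye of recipient mice, taken at 2 months post-tx together with the iris around them), 3 naïve iris samples without a graft, 3 in situ livers of donor mice, 3 hepatocyte-enriched preparations from donor livers, and 2 samples of spheroids that had stayed in vitro. All samples were labelled wild type albino C57BL/6N, whereas the methods name albino B6(Cg)-Tyrc-2J/J animals, adults of at least 3 months and of either sex, with sex not recorded. Spheroids were grown from the perfused, Percoll-enriched cells in medium that held dexamethasone, a synthetic glucocorticoid, and recipients kept their own liver. Total counts per sample ran from 2718518 to 6789648, with hepatocyte preparations lowest and explants highest. Hepatocyte markers matched the labels of the liver-derived samples, with a summed level of at least 14084 TPM (counts scaled for gene length and for depth) in each liver and at most 1811 TPM in each naïve iris. In bulk RNA, fewer cells of a type and less RNA per cell cannot be told apart. Nothing in the labels says which samples came from the same mouse, within a group or between groups. Per the methods both eyes of a recipient were transplanted, so explants may share a mouse, but each sample was tested as independent. The p-values measure the spread between these samples.

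Liver 1 stood apart from livers 2 and 3, and the values of *Serpina1e* and *Serpina4-ps1* that are set against liver are therefore given with and without it. A list of 5 genes known to be more abundant in male liver (*Hsd3b5*, *Cyp4a12a*, *Elovl3*, *Sult2a8*, *Cyp2d9*), written after the difference had been seen, summed to 577 TPM in liver 1 and to 3063 and 3077 TPM in livers 2 and 3. The matching list of 3 female-biased genes (*Cyp2b9*, *Cyp2a4*, *A1bg*) summed to 560.0 TPM in liver 1 and to 2.02 and 1.11 TPM in the others. In the spheroids in vitro the sums were 578 and 816 TPM for the male-biased list and 104 and 77.0 TPM for the female-biased list. Most of the male-biased sum in the spheroids was *Cyp2d9*, at 540 and 666 TPM, against 366 TPM in liver 1.

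All 10 genes lie in a cluster on mouse chromosome 12 (GRCm38). *Serpina6* is at 103646630 to 103657212 on the minus strand, followed by *Serpina1b* (103728156 to 103830373, a span that includes *Serpina1d*), *Serpina1d* (103763594 to 103773592), *Serpina1a* (103853589 to 103863562), *Serpina1c* (103894926 to 103904887) and *Serpina1e* (103946931 to 103958975), all on the minus strand. *Serpina4-ps1* (104080649 to 104086724), *Serpina3k* (104338486 to 104346144), *Serpina3m* (104338486 to 104394257) and *Serpina3n* (104406729 to 104414329) follow on the plus strand. *Serpina3k* and *Serpina3m* share 60 exonic bases, and 429 of the 1361 exonic bases of *Serpina1c* (31.5%) overlap an antisense gene, *B430119L08Rik*. Reads were counted without strand and for every gene they overlapped, so those reads cannot be told apart.

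The Serpina1 copies are so alike that their sequences bear on how they can be counted. Over 1239 aligned coding bases the 10 pairs of copies are 96.3% to 98.5% identical, which is 19 to 46 differences per pair. Of these columns 86 vary among the 5 copies (6.94%), and they are not spread evenly: the most variable stretch of 60 bases holds 18 of them (30%), against a median of 4 over all such stretches. That stretch lies near the 3′ end of the coding sequence, in the region that encodes the reactive centre loop, the bait that decides which protease a serpin traps. It is printed 5′ to 3′ on the transcript from the GENCODE M21 sequences (minus strand, GRCm38), with the positions at which the copies differ in capitals. The places are chr12:103853757-103853816 for *Serpina1a*, chr12:103728324-103728383 for *Serpina1b*, chr12:103895094-103895153 for *Serpina1c*, chr12:103763762-103763821 for *Serpina1d* and chr12:103947100-103947159 for *Serpina1e*.
Serpina1a: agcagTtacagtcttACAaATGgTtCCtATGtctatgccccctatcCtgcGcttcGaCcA
Serpina1b: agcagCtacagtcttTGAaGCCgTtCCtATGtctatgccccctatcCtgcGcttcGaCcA
Serpina1c: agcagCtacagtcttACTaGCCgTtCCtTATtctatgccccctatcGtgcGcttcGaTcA
Serpina1d: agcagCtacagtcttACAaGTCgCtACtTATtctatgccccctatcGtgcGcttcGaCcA
Serpina1e: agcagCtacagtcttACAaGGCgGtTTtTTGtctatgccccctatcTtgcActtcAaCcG

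Reads that matched several places were not counted, so a copy is counted only where it differs from the others. The share of 50-base windows of the exons that occur at a single place among all transcripts was 42.4% for *Serpina1a*, 65.1% for *Serpina1b*, 25.6% for *Serpina1c*, 49.1% for *Serpina1d* and 65.4% for *Serpina1e*. It was 77.9% to 100% for the other 5 genes. With 100-base windows the share was higher, at 57.2, 82.1, 41.2, 70.7 and 85.6% for *Serpina1a* to *Serpina1e* in order. The level of each Serpina1 copy is thus a lower value than its transcripts would give, most so for *Serpina1c*, and the summed level of the 5 copies was tested beside each of them.

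Promoters are shown because the copies were not equally abundant in every sample although the DNA before them is nearly the same where it aligns. In the 250 bases before the start site, taken from RefSeq (GRCm38.p6) for the 6 genes with an entry, the 10 pairs of Serpina1 promoters were 92.1% to 98.0% identical, and their identity with *Serpina3n* was 42.5% to 50.6%. Identity was taken over aligned bases alone. Serpina1 pairs that hold *Serpina1e* aligned over 188 to 199 bases, and the other Serpina1 pairs over 238 to 248. The promoter of *Serpina1a* (chr12:103863620-103863869, minus strand), of *Serpina1e* (chr12:103956898-103957147, minus strand) and of *Serpina3n* (chr12:104406458-104406707, plus strand) are printed 5′ to 3′. Capitals mark the letters TGTTCT, the core of the site bound by the glucocorticoid receptor, or their reverse complement where they lie on the other strand.
Serpina1a: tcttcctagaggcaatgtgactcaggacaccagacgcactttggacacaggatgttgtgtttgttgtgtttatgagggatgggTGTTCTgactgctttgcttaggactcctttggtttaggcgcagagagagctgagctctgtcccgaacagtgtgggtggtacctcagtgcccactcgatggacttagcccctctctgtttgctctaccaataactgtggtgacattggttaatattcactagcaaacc
Serpina1e: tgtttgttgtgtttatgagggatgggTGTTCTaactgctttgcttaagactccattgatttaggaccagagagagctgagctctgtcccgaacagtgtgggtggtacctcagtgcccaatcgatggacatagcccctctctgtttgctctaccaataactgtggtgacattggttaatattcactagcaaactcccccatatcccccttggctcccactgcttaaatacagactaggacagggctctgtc
Serpina3n: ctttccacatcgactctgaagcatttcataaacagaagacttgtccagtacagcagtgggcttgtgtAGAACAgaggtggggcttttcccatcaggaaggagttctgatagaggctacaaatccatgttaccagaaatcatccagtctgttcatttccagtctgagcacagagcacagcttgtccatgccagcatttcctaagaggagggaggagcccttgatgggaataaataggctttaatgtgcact

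TGTTCT occurred in all 6 promoters on either strand (on the opposite strand in *Serpina3n*), while 16.1% of all 32851 promoters of this length hold it. Counted from the annotated start site, its first base lies between positions -174 and -162 in *Serpina1a* to *Serpina1d*, at -224 in *Serpina1e* and at -183 in *Serpina3n*. A C/EBP motif, TTNNGNAA, occurred in *Serpina1b*, *Serpina1d* and *Serpina1e* and at 2 places in *Serpina3n*, and in 36.8% of all promoters. The STAT motif TTCNNNGAA was in none of the 6 windows and in 7.02% of all. No motif overlapped another, and these matches describe letters and not binding. The Serpina1 promoters are 92.1% to 98.0% identical where they align, so their matches are not independent and cannot be read as enrichment over all promoters.

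In liver, hepatocyte preparations and in vitro spheroids alike, *Serpina3k* had the highest counted level per length of the 10 genes. Unique 50-base windows made up 86.0% of those of *Serpina3k* but 25.6% to 65.4% of those of the Serpina1 copies. The order of counted levels therefore need not hold for transcript levels. *Serpina3k* stood at 1453, 1787 and 1692 TPM in the livers, at 1674, 2106 and 2345 TPM in the hepatocyte preparations and at 1739 and 2088 TPM in the spheroids, ranges that overlap. In naïve iris, by contrast, *Serpina3n* led with 335, 524 and 398 TPM, above *Serpina3k* with 111, 146 and 118 TPM. The naïve irises also held the other liver serpins at a low level. The mean in iris was 5.38% to 8.01% of that in liver for the Serpina1 copies and 7.61% for *Serpina3k*, but 1.79% for *Serpina3m* and 0.729% for *Serpina6*. For *Serpina1e* the share was 5.79% with liver 1 and 4.64% without it. Hepatocyte markers in the same irises stood at 25.2% of the liver level for *Alb* (albumin), 20.5% for *Ttr*, 11.7% for *Apoa1* and 6.98% for *Ahsg*. The others lay lower, at 1.29% for *Asgr1*, 1.18% for *Tat*, 1.15% for *Cps1*, 1.09% for *F9*, 1.01% for *Apob* and 0.788% for *Hnf4a*. How liver transcripts came to be counted in iris was not tested.

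**Figure D1:**
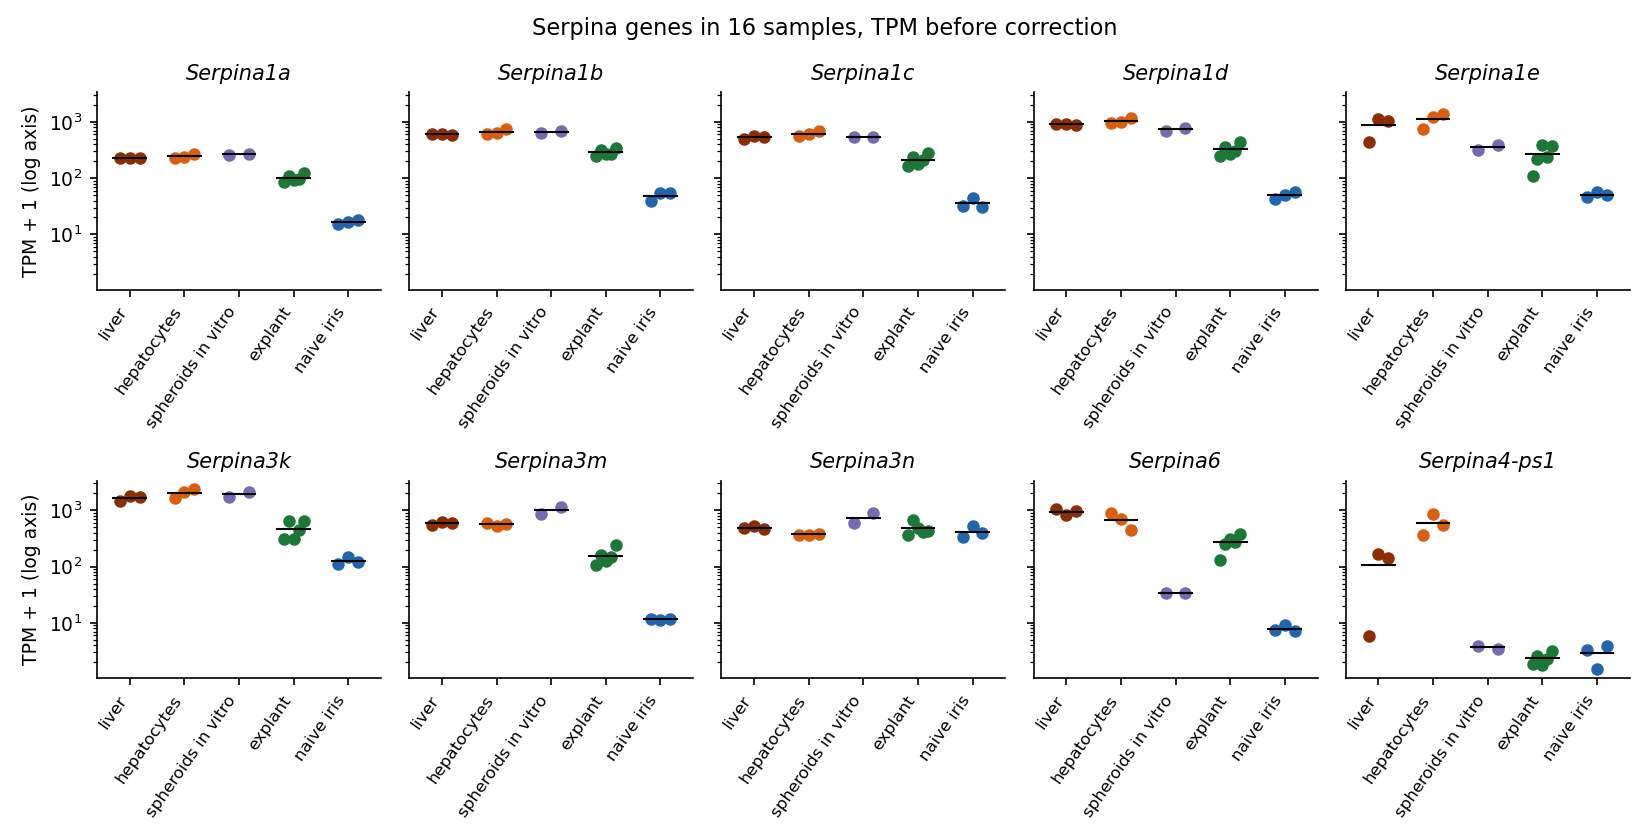
Level of each gene as TPM + 1 on a log axis (y) in the 5 groups (x). Each point is 1 sample and each line is the mean of a group. *Serpina6* in the spheroids lies far below liver and hepatocytes, *Serpina3n* overlaps between explants, irises and livers, and *Serpina4-ps1* is high in hepatocytes and in livers 2 and 3 alone.

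Whether engrafted spheroids carried liver transcripts above the iris background was asked by setting the explants against naïve iris. Of the 9 genes tested, 8 were higher in explants and 0 lower, against 6.16% of 16764 genes called higher and 0.316% called lower (edgeR, adjusted p under 0.05 and a log2 fold change beyond 1 in either direction). DESeq2 and limma-voom gave the same counts, and none of the 9 was lower at an unadjusted p under 0.05. The gene left out was *Serpina4-ps1*, which had 2, 4, 2, 4 and 6 counts in the explants and 5, 1 and 6 counts in the irises and did not pass the filter on low counts. The median log2 fold change was 2.74 over the 9 genes and 0.01 over all genes tested.

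Among the alpha-1 antitrypsin copies, *Serpina1d* stood at 249.9, 362, 268, 304 and 433 TPM in explants 1, 2, 4, 5 and 6 and at 42.2, 49.3 and 54.8 TPM in the naïve irises, groups that do not overlap. The log2 fold change of *Serpina1d* was 2.85 (SE 0.25, adjusted p = 0.00031). The other 4 copies rose by similar amounts, from 2.51 (SE 0.41, adjusted p = 0.0051) for *Serpina1e* to 2.79 (SE 0.20, adjusted p = 0.00012) for *Serpina1a*. Their summed level was 855, 1234, 1193, 1111 and 1540.2 TPM in the explants and 171, 216 and 204 TPM in the irises, a log2 fold change of 2.70 (SE 0.22, adjusted p = 0.00019).

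*Serpina6* rose most of the members. Explants held 131, 254, 315, 269 and 378 TPM of *Serpina6* and irises 6.47, 8.02 and 6.20 TPM, so that the lowest explant lay far above the highest iris. The log2 fold change of *Serpina6* was 5.40 (SE 0.44, adjusted p = 0.00019). *Serpina3m* rose from 10.8, 10.1 and 10.9 TPM to 106, 163, 125, 148 and 237 TPM, a log2 fold change of 3.99 (SE 0.35, adjusted p = 0.00031). *Serpina3k*, which had the higher iris level of these, stood at 310.4, 649.6, 308, 453 and 643 TPM in the explants and had a log2 fold change of 2.04 (SE 0.33, adjusted p = 0.0047).

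Of the 9 genes tested, *Serpina3n* was the one whose explant and iris values overlapped. It stood at 361, 679, 486, 418 and 432 TPM in the explants, and the log2 fold change against iris was 0.29 (SE 0.22, adjusted p = 0.44). Its mean level in naïve iris was 85.5% of that in liver, the highest share of the 10 genes.

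Isolation of the hepatocytes was examined by comparing the preparations with whole liver. None of the 10 genes was called in this comparison by edgeR, DESeq2 or limma-voom, 4 had an unadjusted p under 0.05 in edgeR, and of 12236 genes 0.409% were called higher and 2.31% lower. The summed Serpina1 level was 2684, 3450.0 and 3254 TPM in the livers and 3074, 3666 and 4245 TPM in the preparations, a log2 fold change of 0.36 (adjusted p = 0.23) with overlapping ranges. *Serpina1e* gave 0.49 (SE 0.37, adjusted p = 0.44) with liver 1 and 0.14 (adjusted p = 0.79) without it. *Serpina6* was 1058, 809 and 972 TPM in the livers and 898, 710.2 and 447 TPM in the preparations, a log2 fold change of -0.33 (SE 0.22, adjusted p = 0.37). *Serpina3n* was 478, 529 and 463 TPM against 369, 362 and 384 TPM, and although these ranges do not overlap its log2 fold change of -0.26 had an adjusted p of 0.22.

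The pseudogene *Serpina4-ps1* varied most. Its level was 4.87, 168 and 139 TPM in livers 1, 2 and 3 (9, 308 and 272 counts) and 359, 853 and 538 TPM in the hepatocyte preparations (659, 1381 and 770 counts). Every preparation lay above every liver, and liver 1, which also stood apart by the male-biased and female-biased lists, lay near the level of spheroids and irises. The log2 fold change was 2.60 (SE 0.85, adjusted p = 0.11) with liver 1 and 2.02 (adjusted p = 0.037) without it. The 5 male-biased genes summed to 2946, 5089 and 4746 TPM in preparations 1, 2 and 3, which rank as their *Serpina4-ps1* levels do, and their part in the result was not tested.

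Spheroids in vitro were compared with the hepatocyte preparations to show what changed in culture. Of the 10 genes, 3 were lower (*Serpina1e*, *Serpina6* and *Serpina4-ps1*) and 0 higher, with 9.11% of 12247 genes called lower and 8.13% higher. None was higher by DESeq2 or limma-voom either, although *Serpina3m* and *Serpina3n* were higher at an unadjusted p under 0.05 in edgeR.

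*Serpina6*, the glucocorticoid carrier, had the largest fall of the 9 protein-coding genes. It stood at 32.4 and 32.9 TPM in the spheroids, below the lowest preparation at 447 TPM and above the highest iris at 8.02 TPM. The log2 fold change was -4.71 (SE 0.34, adjusted p = 0.00021), and the mean of the spheroids was 3.45% of that in liver. *Serpina4-ps1* fell to 5 and 4 counts, 2.95 and 2.50 TPM, with a log2 fold change of -8.03 (SE 0.55, adjusted p = 0.00016).

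*Serpina1e* was the only Serpina1 copy called in this comparison. It stood at 321 and 379.7 TPM in the spheroids and at 744, 1201 and 1359 TPM in the preparations, and the log2 fold change was -1.98 (SE 0.33, adjusted p = 0.0052). *Serpina1d*, at 693 and 780.0 TPM against 944, 983 and 1165 TPM, passed the adjusted p without reaching the fold change limit (log2 fold change -0.81, adjusted p = 0.036). *Serpina1a*, at 254 and 271 TPM against 224, 232 and 272 TPM, did not differ beyond its spread (log2 fold change -0.22, adjusted p = 0.45), and neither did *Serpina1b* (-0.33, adjusted p = 0.31) or *Serpina1c* (-0.55, adjusted p = 0.082). These fold changes are relative to the bulk of genes, and scaling by library size alone moved the median of all genes to 0.26 and *Serpina1a* to 0.03.

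On the TPM scale *Serpina3m* was higher in spheroids than in any other group, at 875 and 1149.8 TPM against 595, 525 and 565 TPM in the preparations and 548, 625 and 606 TPM in the livers. Its log2 fold change against the preparations was 0.54 (adjusted p = 0.12), and without spheroid sample 1 it was 0.82 (adjusted p = 0.027). *Serpina3n* was 584 and 879 TPM in the spheroids against 369, 362 and 384 TPM, a log2 fold change of 0.67 (SE 0.25, adjusted p = 0.090). *Serpina3k*, in the same cluster, gave -0.42 (adjusted p = 0.30).

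**Figure D2:**
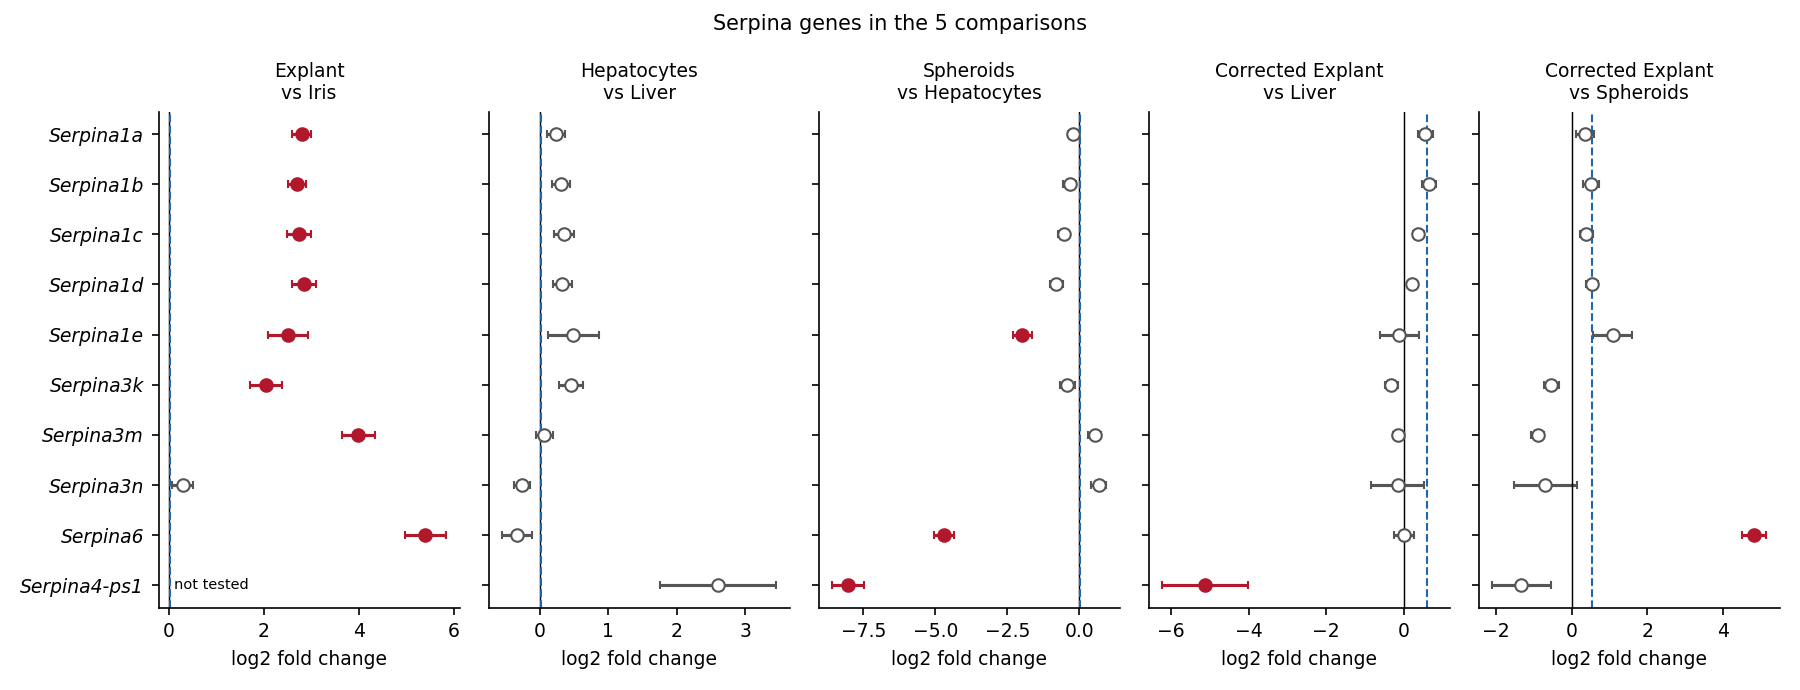
Log2 fold change of each gene (x) in the 5 comparisons. Points are fitted values with bars of 1 SE, filled points are called (adjusted p under 0.05 and beyond 1), the solid line is 0 and the dashed line is the median over all genes tested. Filled points are 8 in explants against iris, 0 in hepatocytes against liver, 3 in spheroids against hepatocytes, and 1 in each comparison of corrected explants.

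To set explants beside liver, the iris part of each explant had to be removed, and the size of that step decides what can be said of each gene. The iris fraction, solved from the deposited tables before and after correction, was 82, 68, 81, 72 and 59% in explants 1, 2, 4, 5 and 6. The mean iris level was multiplied by that fraction, subtracted, and the rest scaled up to a whole. This took 1.08% to 4.33% of the TPM of *Serpina6* in an explant and 2.64% to 8.20% of that of *Serpina3m*. For the Serpina1 copies it took 6.65% to 17.6% in *Serpina1a* to *Serpina1d* and 7.98% to 37.9% in *Serpina1e*, and for *Serpina3k* 11.5% to 33.03%. For *Serpina3n* it took 95.3, 42, 69.9, 72.2 and 57.2% in explants 1, 2, 4, 5 and 6, so that the corrected value of that gene rests on a small remainder in explant 1 and on a larger one in the others.

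**Figure D3:**
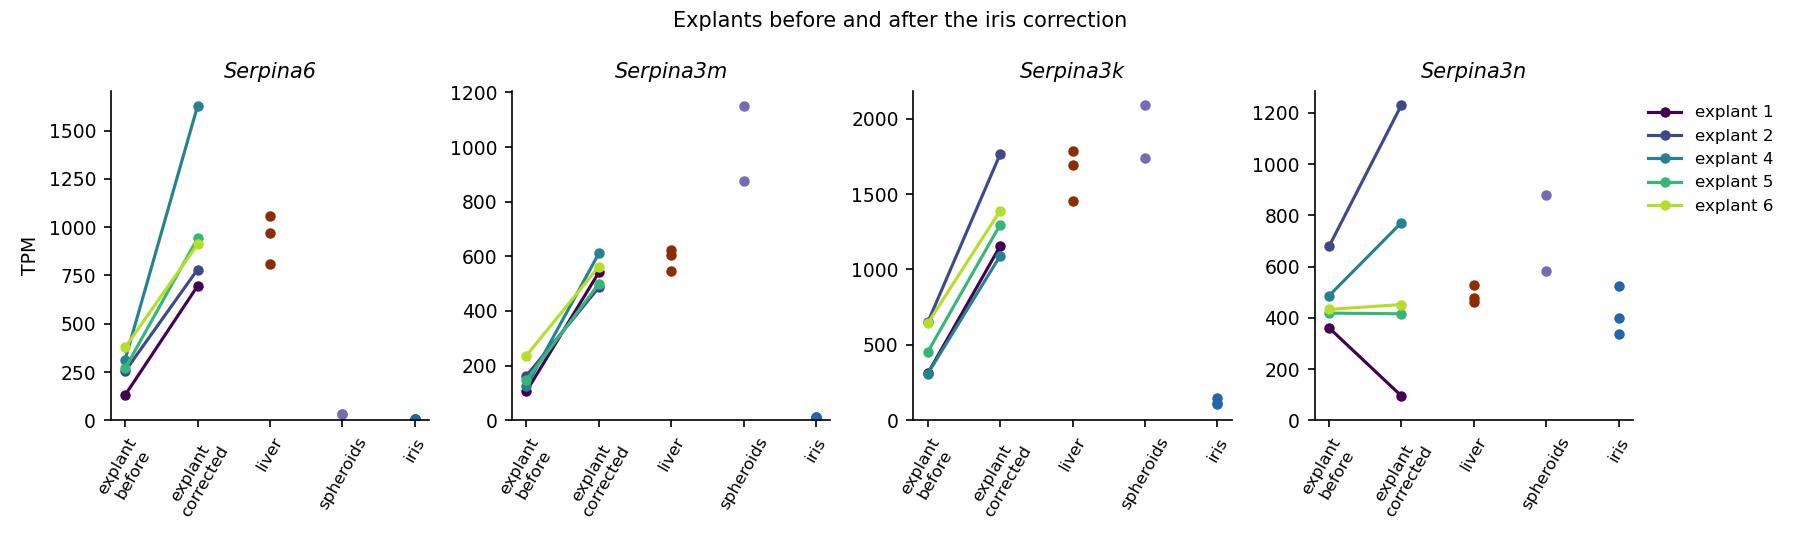
TPM (y) of 4 genes in each explant before and after subtraction of the iris part (joined points, 1 colour per explant) beside livers, spheroids in vitro and naïve irises (single points). Corrected *Serpina3m* (486 to 611 TPM) lies near the liver points (548 to 625 TPM), corrected *Serpina6* runs from 695 to 942 TPM in 4 explants but stands at 1627 TPM in explant 4, above the highest liver at 1058 TPM, and corrected *Serpina3n* spreads from 94.9 to 1230.1 TPM.

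Against in situ liver, 0 of the 10 genes were higher in corrected explants and 1 was lower, *Serpina4-ps1*, with 11.8% of 21002 genes called higher and 3.01% lower (limma on log2(TPM + 1)). The median log2 fold change was -0.05 over the 10 genes and 0.61 over all genes tested. In the same comparison the 10 hepatocyte markers ran from -1.19 (*Tat*) to 0.89 (*Ahsg*), with a median of -0.36. Whether liver genes share a common offset was not tested. Of the members, 3 were higher at an unadjusted p under 0.05, all of them Serpina1 copies.

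The corrected summed Serpina1 level was 3851, 3437, 5440.0, 3462 and 3473 TPM, against 2684, 3450.0 and 3254 TPM in the livers. The corrected mean was 126% of the liver mean, and the log2 fold change was 0.31 (SE 0.17, adjusted p = 0.24). *Serpina1b* was highest relative to liver, at 1171, 875, 1183, 839.8 and 761 TPM against 608, 604 and 587 TPM, with every corrected explant above every liver. Its log2 fold change was 0.66 (SE 0.18, adjusted p = 0.034), under the fold change limit and close to the median of all genes. *Serpina1a* gave 0.56 (adjusted p = 0.079), *Serpina1c* 0.38 (adjusted p = 0.094) and *Serpina1d* 0.23 (adjusted p = 0.24).

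*Serpina1e* spread most among the copies, at 373, 560.2, 1832, 705 and 829.5 TPM in corrected explants 1, 2, 4, 5 and 6 and 437, 1122 and 1031 TPM in livers 1, 2 and 3. Ranges overlapped, and the log2 fold change was -0.10 (SE 0.50, adjusted p = 0.90), or -0.54 (adjusted p = 0.56) without liver 1. As a share of the liver mean the corrected mean was 99.6% with liver 1 and 79.9% without it.

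*Serpina6* did not differ from liver beyond its spread. Corrected explants held 695, 781, 1627, 942 and 911 TPM, a mean of 991 ± 369 (SD, n = 5), against 947 ± 127 TPM (SD, n = 3) in liver. The log2 fold change was 0.01 (SE 0.26, adjusted p = 0.98), and the ranges overlap. *Serpina3m*, at 541, 486, 611, 499 and 563 TPM, had a log2 fold change of -0.14 (adjusted p = 0.52), and *Serpina3k*, at 1155, 1764, 1089.9, 1297 and 1389 TPM, one of -0.31 (adjusted p = 0.24). *Serpina3n* was 94.9, 1230.1, 771, 416 and 452 TPM after correction, with a log2 fold change of -0.14 (SE 0.68, adjusted p = 0.90), and this error allows changes of more than 1 in either direction. The same mean of the irises (335, 524 and 398 TPM) was subtracted from every explant, and the SE leaves out the error of that mean.

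*Serpina4-ps1* was 0, 0.961, 0, 0 and 2.72 TPM in the corrected explants and did not exceed the naïve irises before correction. Its log2 fold change against liver was -5.12 (SE 1.10, adjusted p = 0.015). Without liver 1 it was -6.70 (adjusted p = 0.0031), but without liver 2 or liver 3 the call was lost, at -4.27 (adjusted p = 0.088) and -4.41 (adjusted p = 0.090). Liver 1 and the spheroids in vitro, where 9, 5 and 4 counts were found, lay close to the 2 to 6 counts of the explants, and whether they differ was not detectable at this depth.

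Engrafted spheroids were then set against spheroids in vitro. Here 1 gene was higher in the corrected explants, *Serpina6*, and 0 were lower, with 5% of 21217 genes called higher and 0.957% lower. The log2 fold change of *Serpina6* was 4.82 (SE 0.32, adjusted p = 0.00044), with every corrected explant above both spheroid samples and a median of 0.54 over all genes. *Serpina3m* gave -0.90 (SE 0.18, adjusted p = 0.025), with every corrected explant below both spheroid samples, within the fold change limit. *Serpina3k* also lay lower at an unadjusted p under 0.05 (-0.53, adjusted p = 0.20). *Serpina1e* gave 1.08 (SE 0.52, adjusted p = 0.31), the summed Serpina1 level 0.60 (SE 0.19, adjusted p = 0.12) and *Serpina3n* -0.69 (SE 0.83, adjusted p = 0.67).

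The level of *Serpina6* relative to *Serpina3m* within a sample, chosen after the values had been seen, does not need the correction for scale. It was 1.23, 1.56, 2.53, 1.82 and 1.59 in the uncorrected explants, 1.93, 1.30 and 1.60 in the livers and 1.51, 1.35 and 0.791 in the preparations. In spheroids in vitro it was 0.037 and 0.029, and in the irises 0.598, 0.795 and 0.567. Every explant thus lay above every iris and both spheroid samples, and the explants overlapped the livers. The divisor was itself high in the spheroids, where mean *Serpina3m* was 171% of that in liver, and this widens the gap between spheroids and the other groups beyond that of *Serpina6* alone.

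How the 5 alpha-1 antitrypsin copies divide their summed level was compared per length, as the percent of summed TPM in each sample. In liver the mean shares were 7.36% for *Serpina1a*, 19.4% for *Serpina1b*, 17.1% for *Serpina1c*, 29.3% for *Serpina1d* and 26.8% for *Serpina1e* (32.1% without liver 1). In corrected explants they were 8.76, 24.8, 18.02, 27.7 and 20.8% in that order. None of the 5 differences passed a two-sided exact permutation test over 56 splits, whose smallest p is 0.018: the largest, -6.05 percentage points for *Serpina1e*, had p = 0.41 (adjusted over the 5 copies, 0.57), and +5.36 points for *Serpina1b* had p = 0.089 (adjusted, 0.31). Without liver 1 the difference for *Serpina1e* was -11.3 points (exact permutation p = 0.24 over 21 splits). If counts are divided by the number of unique 50-base windows instead of by length, a choice added after seeing the data, *Serpina1c* takes 32.4% in explants and 31.2% in liver, and *Serpina1e* 14.7% and 19.2% (23.2% without liver 1).

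**Figure D4:**
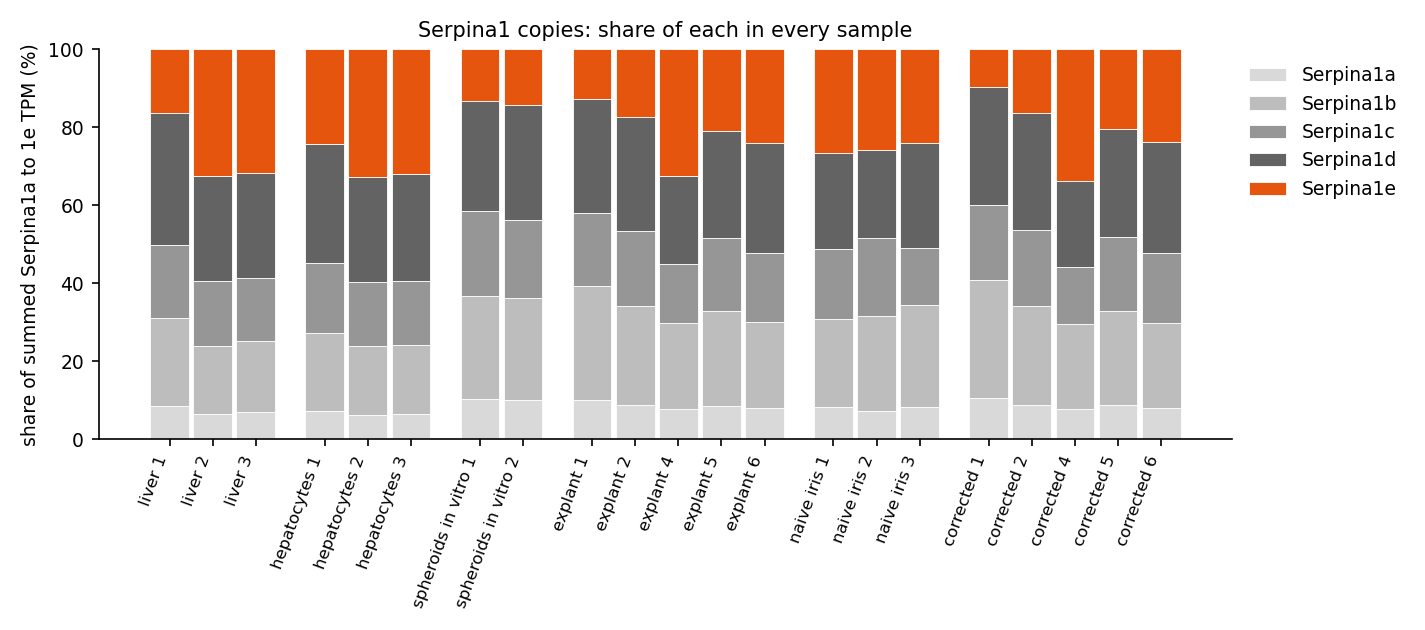
Share of each Serpina1 copy in the summed TPM of all 5 (y, percent) in every sample (x), with the corrected explants at the right. *Serpina1e*, in orange, runs from 9.67% in corrected explant 1 to 33.7% in corrected explant 4 and from 16.3% in liver 1 to 32.5% in liver 2.

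The share of *Serpina1e* varied more than that of the other copies in livers, preparations and explants, and its group means lay farthest apart. In irises (SD 1.36 percentage points) and spheroids (0.830) it did not, since *Serpina1c* spread more there (2.63 and 1.27). It was 16.3, 32.5 and 31.7% in livers 1, 2 and 3, 24.2, 32.8 and 32.02% in the preparations and 13.1 and 14.3% in the spheroids. Livers 2 and 3 resembled preparations 2 and 3, and liver 1 lay close to the spheroids. In the explants before correction it was 12.6, 17.3, 32.6, 21 and 24%, so explant 4 lay among the highest samples and explant 1 below both spheroid samples. The male-biased genes summed to 120, 272, 216, 272 and 326 TPM in those explants before correction. These sums also depend on the iris part, which was 82, 68, 81, 72 and 59% of explants 1, 2, 4, 5 and 6. They therefore do not rank the explants by level within the graft. *Serpina4-ps1* stayed between 0.758 and 2.23 TPM in all 5.

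**Figure D5:**
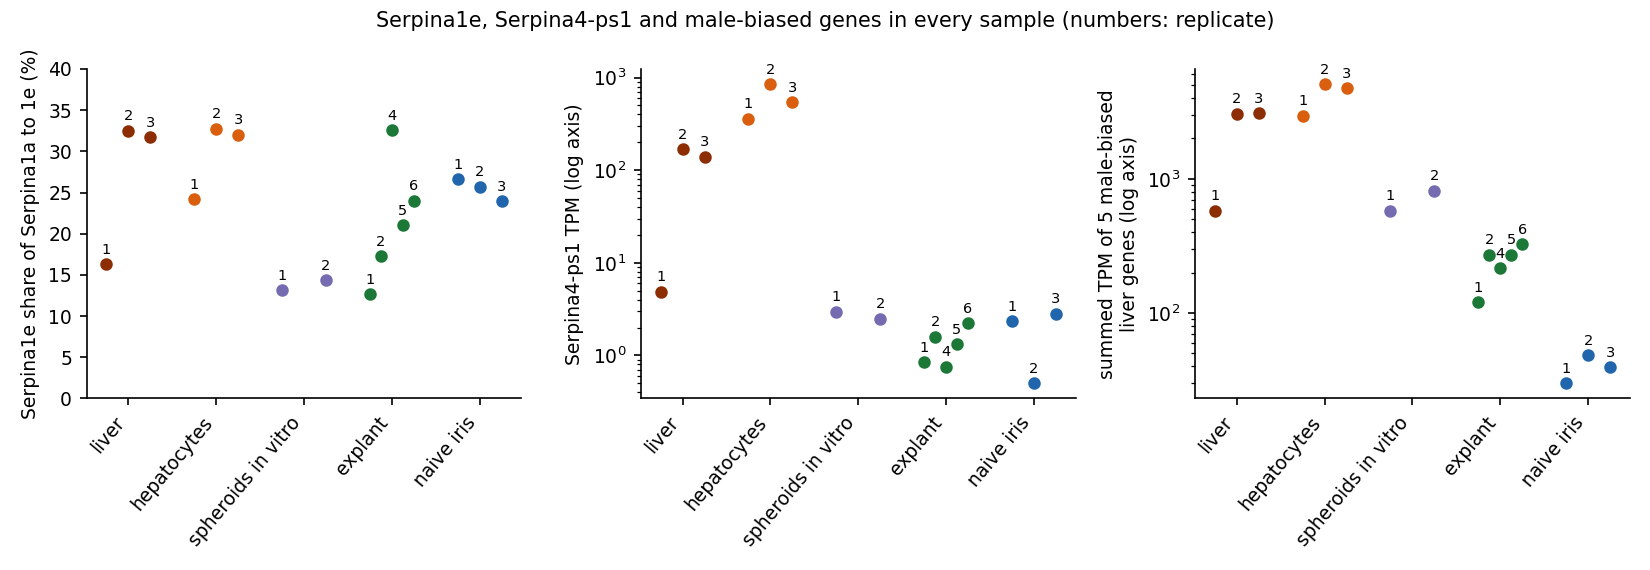
Share of *Serpina1e* (left, percent), level of *Serpina4-ps1* (middle, TPM, log axis) and summed level of 5 male-biased liver genes (right, TPM, log axis) in every sample before correction, with the replicate number over each point. Liver 1 lies below livers 2 and 3 in all 3 panels, and explant 4 is the highest explant in the left panel but not in the others. Explant levels in the middle and right panels also depend on the iris part (81% in explant 4), whereas the share is a ratio within a sample.

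The other serpins of clade A are described by their counts. In explants against iris 4 of 7 tested were higher and 0 lower, among them *Serpina7* (thyroxine-binding globulin, 3.90) and *Serpina10* (the inhibitor of factor Xa that works with protein Z, 5.32). In spheroids against preparations *Serpina7* (1.67) and *Serpina5* (the inhibitor of activated protein C, 3.55) rose and *Serpina9* fell by 6.03, with 9 tested. Against the same spheroids *Serpina5* (-3.38) and *Serpina7* (-2.09) were the genes called of 11 in corrected explants, both lower, and against liver 0 of 9 were called (2 lower at an unadjusted p under 0.05, limma). *Serpina7* rose in spheroids where *Serpina6*, the other hormone carrier, fell. In preparations against liver 1 of 8 was higher, *Serpina9* (3.91). Levels of *Serpina9* were low, at 0 to 0.219 TPM in spheroids, 0.379 to 0.718 TPM in livers and 2.29 to 14.5 TPM in preparations. Mean *Serpina5* was 1.12 TPM in preparations and 0.844 TPM in corrected explants, against 16.7 TPM in spheroids. The fold changes of both genes thus rest on values near the floor.

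Of 11 serpins of other clades, 4 were higher in explants than in iris, among them *Serpinc1* (antithrombin, 3.46) and *Serpind1* (heparin cofactor II, 4.81). In corrected explants against liver 3 of 10 were higher: *Serpinh1* (a collagen chaperone, 2.92), *Serpinb1a* (2.52) and *Serpinb9* (2.12), the last pair acting inside cells, and *Serpinc1* gave 0.43 (adjusted p = 0.056). Naïve iris holds these 3 genes at means of 414, 22.9 and 173 TPM, against 369, 24.8 and 145 TPM in explants before correction, and none of them was called between explants and iris (log2 fold changes of -0.07, 0.21 and -0.16 in that order). Against spheroids 2 of 10 were higher, *Serpinh1* and *Serpinb1a*. In spheroids against preparations *Serpinb6a* rose by 2.48 and *Serpind1*, *Serping1* (C1 inhibitor) and *Serpinb1a* fell by 1.03, 1.17 and 2.21, and in preparations against liver 0 of 10 were called (2 higher and 1 lower at an unadjusted p under 0.05, edgeR).

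Of the proteases that these inhibitors are known to bind or that circulate beside them, 3 of 6 tested were higher in explants than in iris and 0 of 3 were called in preparations against liver (1 at an unadjusted p under 0.05, edgeR). *F11* (coagulation factor XI) fell by 1.85 in spheroids, 1 of 3 tested. In corrected explants *Cma1* (mast cell chymase) and *Tpsb2* (mast cell tryptase) were higher than in liver, by 4.87 and 4.89, and higher than in spheroids, with 8 and 7 tested. Both genes are also found in naïve iris, at means of 30.3 and 27.7 TPM against 38.6 and 43.2 TPM in explants before correction, and neither was called between explants and iris (0.46, adjusted p = 0.58, and 0.74, adjusted p = 0.31, edgeR). Neutrophil markers, among them *Elane* (neutrophil elastase), had a summed level of at most 33.6 TPM in any sample and 0 in both spheroid samples.

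Factors and signals known at serpin promoters came next. In spheroids against preparations *Cebpa* fell by 2.70, 1 of 11, and in preparations against liver 0 of 11 were called (0 higher and 2 lower at an unadjusted p under 0.05, edgeR). In corrected explants against liver *Cebpa* (-2.04) and *Nr3c1* (the glucocorticoid receptor, -1.36) were lower and *Stat3* (1.47) higher, 3 of 11, and against spheroids *Stat3* alone (1.66). In explants against iris 5 of 9 were higher. Of 8 glucocorticoid response genes, *Fkbp5* (2.41), *Sgk1* (2.36), *Zbtb16* (1.90) and *Mt2* (1.85) rose and *Hsd11b1* fell by 1.54 in spheroids against preparations, and 0 were called in preparations against liver (3 at an unadjusted p under 0.05, edgeR) and 1 in explants against iris. *Tsc22d3* (-6.89) and *Hsd11b1* (-1.10) were lower in corrected explants than in liver, and *Tsc22d3* (-6.70) and *Fkbp5* (-4.17) lower than in spheroids. Subtraction sets the values of *Tsc22d3*, which was 0 in all 5 corrected explants because the iris part was at least as large as the level in each explant. Before correction its mean was 125 TPM in explants, 206 TPM in iris, 119 TPM in liver and 103 TPM in spheroids. *Fkbp5*, at means of 15.7 TPM in iris and 11.7 TPM in explants before correction, ran from 0 to 8.38 TPM after it, and *Nr3c1* too was higher in iris (49.5 TPM) than in explants (40.3 TPM). The part of the dexamethasone in the culture medium cannot be told apart from that of culture itself.

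Acute phase genes, the class to which alpha-1 antichymotrypsin belongs, were higher in explants than in iris in 11 of 12 tested. In preparations against liver *Saa1* (-1.84) and *Saa2* (-2.62) were lower, 2 of 13. In spheroids *Lcn2* rose by 4.23 while *Orm1*, *Saa1* and *Saa2* fell by 3.29, 2.54 and 2.71. In corrected explants 0 of 13 were called against liver and 0 of 13 against spheroids in limma (8 and 7 at an unadjusted p under 0.05), *Saa1* being at -1.95 (unadjusted p = 0.012, adjusted p = 0.066) against liver.

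Markers of other cells moved with the corrected explants. Of 8 macrophage markers 7 were higher than in liver and 5 higher than in spheroids, with summed levels of 2320 to 6100 TPM in corrected explants, 521 to 1155 TPM in livers and 584 to 773 TPM in spheroids. In the other comparisons 5 of 8 were higher in explants than in iris, 3 of 7 lower in preparations than in liver and 5 of 8 higher in spheroids. Of 9 iris and anterior eye markers, 3 of 8 tested remained higher in corrected explants than in liver, with summed levels of 324 to 3586 TPM after correction against 463 to 477 TPM in liver. Of 5 fibroblast markers *Col1a1* (a collagen chain) was higher in corrected explants than in liver (4.82, adjusted p = 0.0011, limma) and than in spheroids (6.82), and *Col1a2* and *Dcn* were lower in preparations than in liver (-4.08 and -2.05). The 5 fibroblast markers summed to 304 to 1096 TPM in corrected explants, 409 to 1123 TPM in livers, 117 to 168 TPM in preparations and 305 to 353 TPM in spheroids. Of 5 astrocyte and Müller glia markers *Slc1a3* (a glutamate transporter) was higher than in liver (4.49, adjusted p = 0.0069, limma) and than in spheroids (4.95), with a mean of 45.6 TPM in naïve iris and 44.9 TPM in explants before correction. All 10 hepatocyte markers were higher in explants than in iris and 0 were called in the other 4 comparisons (3 to 7 at an unadjusted p under 0.05). The part of these cells in the serpin values was not tested.

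By the pattern over the 16 samples, *Serpina1a* was most like *Apoh*, *Apoa1* and *Azgp1* (Pearson r of log2(TPM + 1) from 0.998 to 0.999) and *F12* and *Slc2a2* were among the genes most like *Serpina3m* (0.995 and 0.994), out of 19440 genes. *Serpina3k* was most like *Cideb*, *A1cf* and *Masp1* (all 0.992) and *Serpina6* like *Lect2*, *Akr1c6* and *C8a* (0.971 to 0.982). The gene closest to *Serpina3n*, *Mir1b*, reached 0.809. The points share the 5 groups, whose liver and iris content differ, so these values describe the groups as much as the genes.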

How the data were processed

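RNA was sequenced by the authors with Smart-seq3 in 48 libraries, 3 per sample. Per the labels and methods, reads were aligned with TopHat2 to mm10 (GRCm38), UMI-tools and Samtools took out duplicates, and featureCounts counted reads per gene, ignoring strand and dropping those with several matches (versions not given in the sources used here). The authors deposited raw counts, TPM from these counts, and a table of corrected signal, which is TPM with the iris part subtracted and which for explant 4 is on another scale (iris reduced by the fraction instead of multiplied). It served to solve the iris fractions, which were applied alike to all 5 explants. No column was left out because it named no sample (0 such columns).

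Technical libraries were summed. Explants against irises, hepatocytes against livers, and spheroids against hepatocytes were tested by edgeR 4.0.16 (filterByExpr, TMM, quasi-likelihood) on counts. Corrected explants were tested against livers and spheroids by limma 3.58.1 with trend on log2(TPM + 1), for genes with a mean of at least 1 TPM, since corrected values are not counts. A fold change on that scale understates low genes. The iris mean and the iris fractions were taken as known, so SEs and p-values of corrected explants leave out their error. A call needed an adjusted p under 0.05 (Benjamini-Hochberg, over all genes tested) and a log2 fold change beyond 1 in either direction. Shares of copies were compared by exact permutation. Alternatives included DESeq2 1.42.0, limma-voom, other scaling and filters, and left-out samples. Scripts ran in R 4.3.3 and Python 3.11.15 (coding sequences aligned with MAFFT 7.526) and were tested on simulated data. All 10 genes were named in every comparison, and for 5 of them the 3 genes most like them, except that a few genes and a motif are not reported here and were left out of the list counts. The members and gene lists were chosen with earlier results of these data known.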

Additional observations from a re-analysis of the deposited data

Results flagged for a closer look

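In groups of 5 explants, a sample was singled out when its gap to the nearest other, divided by the range of all 5, was above Dixon's value of 0.71. Of 32 such groups of values 3 were, and chance gives about 1 in 20. All 3 concern explant 4. Its corrected *Serpina6* level was the highest, 1627 TPM against a median of 911 TPM (gap over range 0.735). Its corrected summed Serpina1 level was the highest, 5440.0 TPM against a median of 3473 TPM (0.793). Its share of *Serpina1d* before correction was the lowest, 22.4% against a median of 28.1% (0.717), while its share of *Serpina1e* was the highest of the 5 at 32.6%. The iris fraction of explant 4 was 81%, and that of explant 1, whose corrected values were not singled out, was 82%.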

How the results depend on the processing

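Explants against iris kept 8 genes higher and 0 lower under every alternative run, with each replicate left out included. In hepatocytes against liver 1 gene, *Serpina4-ps1*, was higher with no filter on low counts, with all 5 groups in 1 fit and without liver 1 (0 to 1 when a replicate was left out), and *Serpina3m* became -0.049 by library size alone and ran from -0.029 (without liver 1) to 0.13 when a replicate was left out. In spheroids against hepatocytes 0 to 1 gene was higher when a replicate was left out (*Serpina3n* at 1.03 without spheroid sample 1), and *Serpina1a* was 0.034 by library size alone. Leaving out a spheroid sample leaves 1, which is then assumed to vary like the other group. Against liver, corrected explants had 1 gene higher with no fold change limit and 0 to 1 lower when a replicate was left out. With TPM before correction 9 genes were lower, *Serpina1a* at -1.18, *Serpina1b* -1.07, *Serpina1c* -1.35, *Serpina1d* -1.51, *Serpina6* -1.88 and the sum -1.42. *Serpina1e* was 0.030 and *Serpina3m* 0.0054 with iris fractions by non-negative least squares. With a replicate left out, *Serpina1e* ran from -0.54 (without liver 1) to 0.14 (without explant 1 or liver 2, and 0.082 without liver 3). *Serpina3n* was 0.093 from technical libraries a alone and ran from -0.51 (without explant 2) to 0.41 (without explant 1). *Serpina6* was -0.061 with the read-start limit undone (counts scaled up as if duplicate removal kept at most 2 reads per base) and ran from -0.19 (without explant 4, and -0.10 without liver 2) to 0.12 (without explant 1). Against spheroids 6 genes were lower before correction and 1 (*Serpina3m*) with the read-start limit undone or no fold change limit. Before correction *Serpina1a* was -1.38, *Serpina1b* -1.23, *Serpina1c* -1.34, *Serpina1d* -1.21, *Serpina1e* -0.55 and the sum -1.13. The difference in share of *Serpina1d* ran from -2.80 (without liver 2) to 0.73 percentage points (without liver 1). The cause of these changes was not tested.

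Same-numbered samples did not deviate together (correlations of -0.10 to 0.20 over 11 pairs, 1 of them above 0.1), so the numbers were not taken as pairs. With the replicate block 0 genes were lower in corrected explants against liver (*Serpina4-ps1* at -4.49) and *Serpina6* was -0.33, and genes called over the whole table fell from 2470 and 633 to 156 and 30.

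Whole-table counts moved by over 1.5 times elsewhere too. Explants against iris gave 1032 higher and 53 lower, and 541 and 42 by limma-voom. Hepatocytes against liver gave 50 and 283, but 9 and 11 by limma-voom, 119 and 528 by DESeq2, 191 and 1014 with no filter and 217 and 923 with all groups in 1 fit. Spheroids against hepatocytes gave 996 and 1116, and 1523 and 808 by library size alone. Corrected explants against liver gave 8292 and 1604 before correction and 1136 and 295 from the deposited corrected values, and against spheroids 1060 and 203, against 7421 and 1201, and 408 and 80. Few counts limit *Serpina4-ps1* outside liver and hepatocytes, and a small unique sequence limits *Serpina1c*.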
